A study of Mus musculus with 6 samples.

Results

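The transcripts described here encode 6 inhibitory immune ligands and related surface or secreted proteins, Cd274, Cd276, Cd47, Cd200, Lgals9 and Cd109. They were chosen by name, with earlier results of the same genotype comparison known, from 22086 genes with a counted transcript, of which 13545 had enough counts to be tested. All 6 were among the tested genes, and each was represented by the Ensembl transcript with its highest total count over the 6 libraries. Since the choice of members used this contrast, their own differences are a description, and the calls of the fit across all genes are given only beside the share of all genes called.

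Astrocyte polysomal mRNAs were recovered from the hippocampus of 6 weeks-old mice by TRAP, an immunoprecipitation of ribosomes that carry the protein L10a fused to eGFP. All mice carried the Aldh1L1-RPL10aGFP transgene, a BAC driven by the astrocyte promoter Aldh1l1, and homozygous floxed alleles of Cx43 (connexin 43, encoded by Gja1). The 3 Cx43KO libraries came from mice that also carried Gfap Cre (Cx43 fl/fl with the recombinase under a GFAP promoter), and the 3 Cx43FL libraries from littermates without the Cre. The GFAP promoter of the Cre and the Aldh1l1 promoter of the tag can be active in different sets of cells. The labels do not say how many animals entered a library, so that the errors below measure the spread between libraries.

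Inhibitory ligands are surface or secreted proteins that restrain immune cells through receptors carried by those cells. CD274 (PD-L1) binds PD-1 on T cells, CD47 binds SIRP alpha on phagocytes and acts as a "do not eat me" signal, and CD200 binds its receptor on microglia and other myeloid cells. Galectin-9, the product of Lgals9, is a secreted lectin that binds TIM-3 among other glycoproteins, CD276 (B7-H3) is a B7 family member whose receptor is not settled, and CD109 is a GPI-anchored co-receptor of TGF-beta rather than a classical checkpoint ligand. In the brain, neurons express CD47 and CD200 abundantly, and interferons induce CD274 and galectin-9 in many cell types.

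The libraries held between 14787303 and 15391214 counts on genes in Cx43FL and between 16056347 and 34733473 in Cx43KO. Cx43KO replicate 1 stood apart from the others on the first principal component, which held 41.0% of the variance, and is therefore followed through each result. It had the lowest summed level of 10 astrocyte markers and the highest of 12 neuron markers. Gja1, the targeted gene, had 1396, 1382 and 1264 counts in Cx43FL and 1405, 2449 and 3079 in Cx43KO, and its log2 fold change from the fit across all genes was 0.08 (standard error, SE, 0.28). Counts over the whole transcript do not show whether the deleted part was covered, so Gja1 does not separate the genotypes here, and every direction below is that of the libraries labelled Cx43KO against those labelled Cx43FL. Libraries of a genotype carry neighbouring library numbers, and a library batch and the genotype cannot be told apart. In bulk libraries, more cells of a type and more RNA per cell cannot be told apart either.

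The promoters of Lgals9 and Cd274 are printed here because the counts of these genes followed different libraries, as described below, and both genes are known interferon targets. The sequences are from RefSeq, build GRCm38.p6, and run 5′ to 3′ on the strand of the gene, from 250 bases before to 50 bases after the annotated start. Capitals mark the matches to the core of the interferon-stimulated response element. Lgals9 is at chr11:78984875-78985174 on the minus strand and Cd274 at chr19:29367188-29367487 on the plus strand.
Lgals9: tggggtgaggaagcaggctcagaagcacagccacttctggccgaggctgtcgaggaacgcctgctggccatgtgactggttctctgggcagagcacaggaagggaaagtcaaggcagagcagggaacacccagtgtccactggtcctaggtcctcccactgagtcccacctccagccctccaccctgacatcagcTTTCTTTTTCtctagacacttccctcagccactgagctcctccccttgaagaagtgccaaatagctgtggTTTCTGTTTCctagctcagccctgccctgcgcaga
Cd274: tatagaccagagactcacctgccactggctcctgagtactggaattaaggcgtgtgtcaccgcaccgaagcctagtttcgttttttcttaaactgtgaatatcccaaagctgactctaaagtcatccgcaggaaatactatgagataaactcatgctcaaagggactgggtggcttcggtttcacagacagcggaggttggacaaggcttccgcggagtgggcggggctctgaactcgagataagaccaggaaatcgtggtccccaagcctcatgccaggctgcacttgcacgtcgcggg
The motifs searched, on both strands, were the interferon-gamma activated site TTCNNNGAA, the response element core (GAAA, any 2 bases, GAAA) and the NFκB site (GGGA, any base, TTTCC). Over 32851 RefSeq promoters of the same length, 8.30%, 3.44% and 0.411% held at least 1 match. Lgals9 held 2 matches of the response element core, at positions 196 and 266 of the window on the opposite strand, and no match of the others. No motif matched in the windows of Cd274, Cd276, Cd47 and Cd200, and Cd109 had no entry. The search found only exact matches within the window, so a window without a match does not show that the gene lacks such an element.

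The level of each transcript per unit of length was taken as counts per kb of the representing transcript scaled to the same sum in each library (TPM, transcripts per M). In Cx43FL, Cd47 was the highest at 71.2 ± 10.9 TPM (SD, n = 3 libraries), followed by Cd200 at 18.6 ± 15.3, Cd274 at 1.51 ± 1.38, Cd276 at 1.21 ± 0.37, Lgals9 at 0.60 ± 0.58 and Cd109 at 0.08 ± 0.04. Cd47, Cd200 and the other 4 were separated by more than the range of the libraries, while the neighbours among Cd274, Cd276, Lgals9 and Cd109 overlapped. Cd47 thus lay at percentile 81.3 of the tested genes and Cd200 at percentile 52.5, whereas the other 4 lay at percentile 8.76 or lower. In the libraries labelled Cx43KO the order was the same, with Cd47 at 116.5 ± 62.7, Cd200 at 40.7 ± 47.6, Cd274 at 24.6 ± 18.0, Cd276 at 4.99 ± 3.62, Lgals9 at 4.91 ± 4.04 and Cd109 at 1.35 ± 1.24 TPM. Cd274 stood at percentile 53.9 there, and its ranges were separate from those of Cd276 and overlapped those of Cd200.

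**Figure D1:**
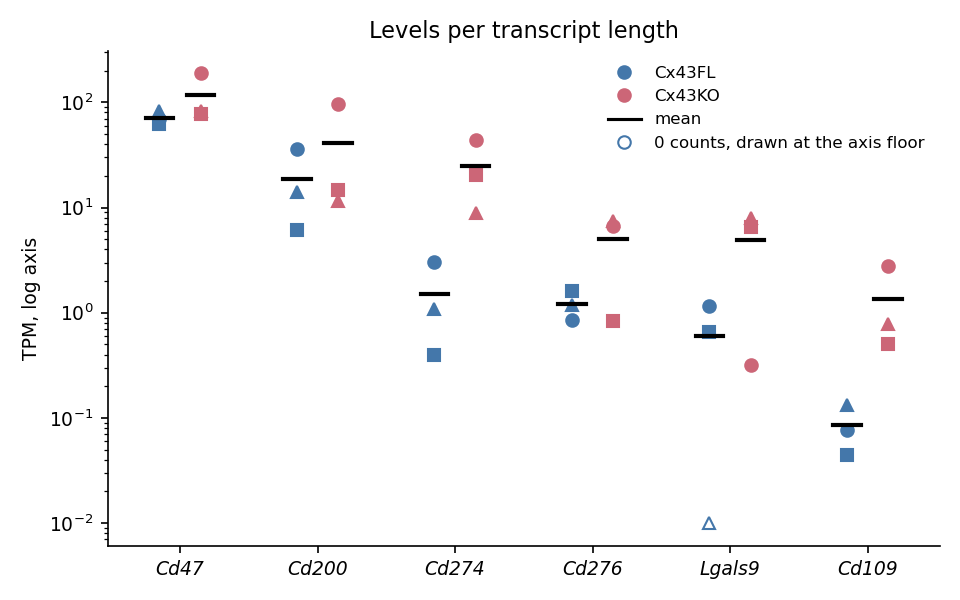
Level per transcript length (TPM, log axis) of each gene in each Cx43FL (blue) and Cx43KO (red) library, with circles, squares and triangles for replicates 1, 2 and 3 and a bar for the mean. Cd47 and Cd200 are the highest in Cx43FL, and the Cd274 mean goes from 1.51 in Cx43FL to 24.6 in Cx43KO.

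The fitted log2 fold change of Cx43KO over Cx43FL was above 0 for 6 of the 6 transcripts, as it was for 54.4% of all tested genes, with a median of 2.44 against 0.07 over all tested genes. Every Cx43KO library was above every Cx43FL library for 2 of them, Cd274 and Cd109, a pattern shown by 8.08% of the tested genes. The libraries overlapped for the other 4. With edgeR's quasi-likelihood test, which called 0.00738% of the genes higher at an adjusted p below 0.05, 0 of the 6 were called. At an unadjusted p below 0.05 there were 2 (again Cd274 and Cd109), beside 5.66% of all genes in this direction. Cd109, with 3, 2 and 5 counts in Cx43FL, had enough counts to be tested only through its Cx43KO libraries. Its p and its separation of the groups therefore depend in part on that filter and are not read as support. The p, calls and separation of the other members are not read as support either, as all 6 were chosen with this contrast known. DESeq2, the tool of the study, here called 1 of the 6, Cd274, with its prior and 1 without it. It called 0.827% and 1.03% of the genes higher and 0.124% and 0.189% lower. The study, with an earlier version of DESeq2, listed Cd109 as well as Cd274 as higher in Cx43KO. Without Cx43KO replicate 1, 3 of the 6 (Cd274, Cd109 and Lgals9) had both remaining Cx43KO libraries above every Cx43FL library, a pattern that 13.9% of the genes showed.

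**Figure D2:**
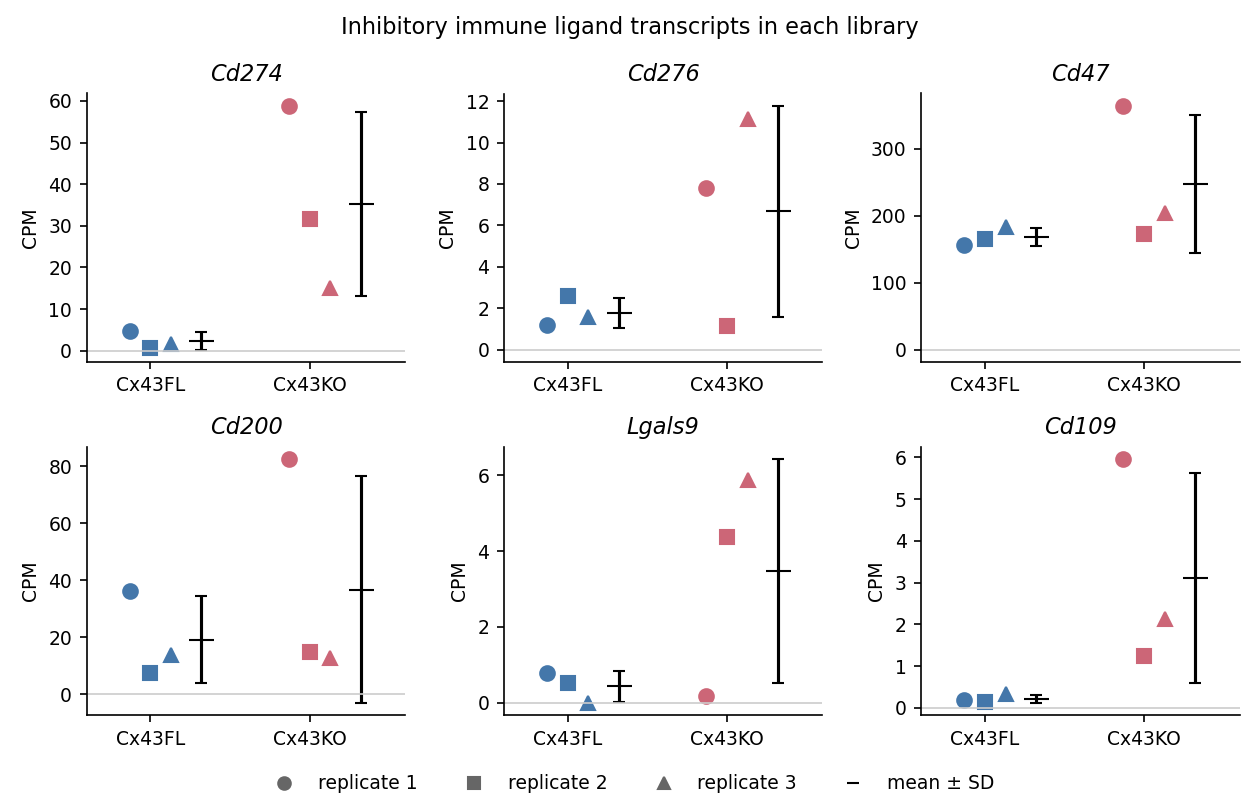
CPM (counts per M after TMM scaling) of each transcript in each library, on linear axes that differ between panels, with black bars for the mean and SD of 3 libraries. Cd274 and Cd109 have all Cx43KO points above all Cx43FL points, Cd47 and Cd200 have their highest point in Cx43KO replicate 1, and Lgals9 is high only in Cx43KO replicates 2 and 3.

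**Figure D3:**
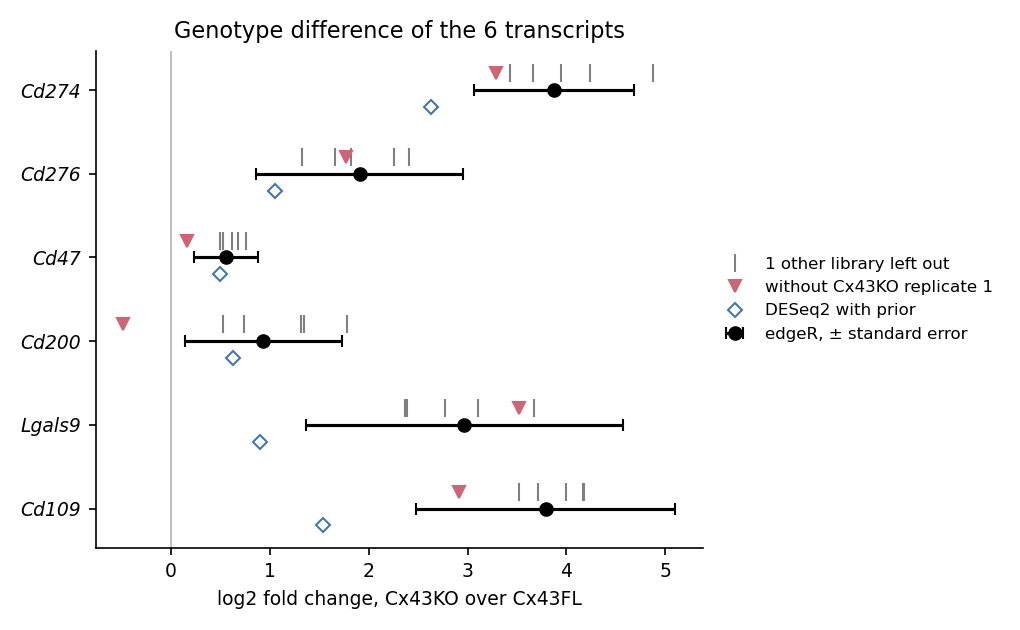
Fitted log2 fold change of Cx43KO over Cx43FL for each transcript (black, with SE), with each library left out in turn (ticks, and a triangle for Cx43KO replicate 1) and with the DESeq2 prior (diamonds). Without Cx43KO replicate 1, Cd200 falls to -0.48 and Cd47 to 0.16, and the prior brings Lgals9 to 0.90.

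Cd274 encodes PD-L1, the ligand of the T cell receptor PD-1. The Cx43FL libraries held 73, 11 and 25 counts and the Cx43KO libraries 948, 787 and 490 counts, or, in CPM (counts per M after TMM scaling of the library sizes), 4.81, 0.730 and 1.63 against 58.9, 31.6 and 15.1. The lowest Cx43KO library was thus above the highest Cx43FL library. The means were 2.39 ± 2.14 CPM in Cx43FL and 35.2 ± 22.1 CPM in Cx43KO (SD, n = 3 libraries each), and the fitted log2 fold change was 3.88 (SE 0.81). Relative to the Cx43FL mean of log2(CPM + 0.5), Cx43KO replicates 1, 2 and 3 were higher by 4.63, 3.74 and 2.70. The log2 fold change was 3.29 without Cx43KO replicate 1, so that the difference was present without the library that stood apart, and 4.88 without Cx43FL replicate 1, the highest of its group.

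Cd274 is on chromosome 19, from 29367455 to 29388095 on the plus strand (GRCm38), and its only counted transcript has 7 exons and 3622 bases. Its exons share 511 bases with AC119228.1, an antisense gene annotated on the opposite strand. The sources do not state that counting used the strand, so reads of the antisense gene cannot be told apart from those of Cd274 in these bases. The nearest tested gene before it, Plgrkt, starts 65 bases away on the minus strand and encodes a plasminogen receptor. Plgrkt had a log2 fold change of -0.45 (SE 0.48), and Ric1, the nearest tested gene after Cd274, 134 kb away, had one of 0.02 (SE 0.36). The difference at Cd274 was therefore not shared by the tested genes on either side. Pdcd1lg2, which encodes PD-L2, the other PD-1 ligand, had 0 counts in every library.

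Cd109, on chromosome 9 from 78615546 to 78716253 on the plus strand, encodes the TGF-beta co-receptor. Its representing transcript has 33 exons and 5860 bases, with 3, 2 and 5 counts in Cx43FL and 96, 31 and 69 in Cx43KO. These are 0.198, 0.133 and 0.326 CPM against 5.96, 1.25 and 2.13 CPM. The groups did not overlap, but the Cx43FL counts lie close to the 3 counts that a count of 0 allows, and Cd109 had the lowest level per length of the 6 in both genotypes. The means were 0.219 ± 0.098 and 3.11 ± 2.51 CPM (SD, n = 3 each). The log2 fold change was 3.79 (SE 1.31), between 2.91 without Cx43KO replicate 1 and 4.18, and 1.53 with the DESeq2 prior. Of its tested neighbours, Slc17a5, a lysosomal sialic acid transporter 27.5 kb away, had a log2 fold change of 0.91 (SE 0.56) with no overlap between the groups. The collagen gene Col12a1, 883 kb away, had one of 0.03 with an SE of 1.74.

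Cd276, on chromosome 9 from 58524298 to 58555437 on the minus strand, encodes B7-H3. It had 18, 39 and 24 counts in Cx43FL and 126, 28 and 360 in Cx43KO, or 1.19, 2.59 and 1.56 against 7.82, 1.13 and 11.1 CPM. Cx43KO replicates 1 and 3 were above every Cx43FL library and Cx43KO replicate 2 was below every one. The means were 1.78 ± 0.725 and 6.69 ± 5.09 CPM (SD, n = 3 each), with a log2 fold change of 1.91 (SE 1.05) that lay between 1.32 and 2.41 when each library was left out. Its 2 counted transcripts had identical counts, as they share 3185 of the 3186 bases of the representing one. The tested genes on either side were Insyn1, an inhibitory synapse factor, at 1.53 (SE 0.90), and Nptn, which encodes the adhesion molecule neuroplastin, at 0.55 (SE 0.29) with the Cx43KO libraries above the Cx43FL libraries.

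Cd47 encodes the ligand of SIRP alpha and was the most abundant of the 6. It had 2384, 2483 and 2805 counts in Cx43FL and 5873, 4299 and 6616 in Cx43KO, which is 157, 165 and 183 CPM against 365, 173 and 204 CPM. The Cx43FL libraries were close together, Cx43KO replicate 2 lay within their range, and Cx43KO replicate 1 was far above it. The means were 168 ± 13.2 and 247 ± 103 CPM (SD, n = 3 each), and the log2 fold change was 0.56 (SE 0.33) with all libraries and 0.16 without Cx43KO replicate 1. Its nearest tested genes were Ift57, of the intraflagellar transport machinery, 35.4 kb away, and Bbx, which encodes an HMG box protein, 277 kb away. They had log2 fold changes of -0.05 and -0.08.

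Cd200 encodes the ligand through which neurons and other cells restrain microglia. It had 552, 110 and 211 counts in Cx43FL and 1330, 366 and 412 in Cx43KO, or 36.4, 7.30 and 13.7 against 82.6, 14.7 and 12.7 CPM. Cx43KO replicate 1 was the highest library and Cx43FL replicate 1 the next, and the remaining 4 lay between 7.30 and 14.7 CPM. The means were 19.1 ± 15.3 and 36.7 ± 39.8 CPM (SD, n = 3 each). The log2 fold change of 0.94 (SE 0.79) became -0.48 without Cx43KO replicate 1, so that its direction rests on this library, and 1.78 without Cx43FL replicate 1. The nearest tested genes were Atg3, an autophagy enzyme, 194 kb away, and Tagln3, a neuronal member of the calponin family, 302 kb away. They had log2 fold changes of -0.36 and -0.22.

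Reads of a gene were counted on each of its overlapping transcripts, which shows where along Cd47 and Cd200 the counts of Cx43KO replicate 1 lay. For Cd47, on chromosome 16 from 49800533 to 49915010 on the plus strand, a shorter coding transcript of 1175 bases shares 1143 bases with the representing transcript of 5250 bases and does not reach its last 500 bases. On this short transcript Cd47 had 18.2, 21.3 and 29.96 CPM in Cx43FL and 24.96, 26.3 and 23 CPM in Cx43KO, with Cx43KO replicate 1 inside the Cx43FL range. On the rest of the long transcript the values were 139, 143 and 153 CPM in Cx43FL and 340, 146 and 181 CPM in Cx43KO. The excess of Cx43KO replicate 1 was thus seen outside the short transcript and not within it.

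Cd200, on chromosome 16 from 45382135 to 45409053 on the minus strand, showed the same layout. A transcript of 879 bases annotated for nonsense-mediated decay lies wholly within the representing transcript of 2347 bases and also stops short of its last 500 bases. It had 7.11, 1.59 and 1.89 CPM in Cx43FL and 4.66, 2.21 and 3.61 CPM in Cx43KO, while the rest of the long transcript had 29.2, 5.70 and 11.9 against 77.9, 12.5 and 9.11 CPM. The counts on the short transcript were 5.64% of those on the representing one in Cx43KO replicate 1 and between 13.7% and 28.4% in the other 5 libraries. For Cd47 this share was 6.84% in Cx43KO replicate 1 and between 11.3% and 16.4% elsewhere. Over 2214 genes with such a nested short transcript, the median share was 20.2% in Cx43KO replicate 1 and between 15.3% and 20.5% in the other libraries, so that this library was not low at the median gene. The Cx43KO replicate 1 shares of Cd200 and Cd47 were at percentiles 21.1 and 23.9 of these genes, against 36.0 to 68.5 and 35.0 to 44.5 in the other libraries. Whether these counts come from transcripts with another 3′ end was not tested.

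**Figure D4:**
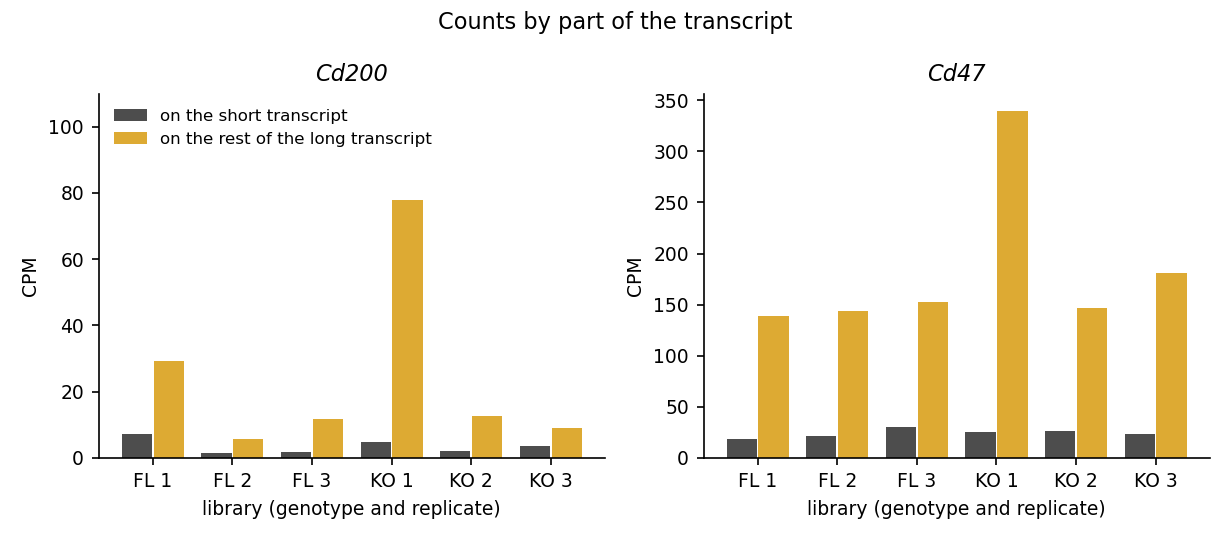
CPM of Cd200 and Cd47 in each library on a short transcript (grey, 879 and 1175 bases) and on the rest of the long representing transcript (yellow). The high value of Cx43KO replicate 1 is on the rest of the long transcript, at 77.9 CPM for Cd200 and 340 CPM for Cd47, and not on the short one.

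Neuron markers, like these 2 transcripts, were highest in Cx43KO replicate 1. Over 12 neuron markers, 12 had a log2 fold change above 0, beside 54.4% of all tested genes (median 0.84, and 0.10 without Cx43KO replicate 1). Their summed level was 2168 to 2881 CPM in Cx43FL and 7689, 3002 and 4284 CPM in Cx43KO replicates 1 to 3. The 10 astrocyte markers summed to 18837 to 22165 CPM in Cx43FL and to 10670, 20265 and 30460 CPM in Cx43KO. The 8 oligodendrocyte markers summed to 588 to 967 CPM in Cx43FL and to 2604, 978 and 607 CPM in Cx43KO, again highest in replicate 1. The order of the other 5 libraries was not shared by Cd200, as Cx43FL replicate 1 held its next highest level and the lowest neuron sum. Cd47 had the neuron sum's order in these libraries, except that Cx43FL replicate 3 (183 CPM) was above Cx43KO replicate 2 (173 CPM). The part of these cells in the Cd47 and Cd200 values was not tested.

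Lgals9 encodes galectin-9 and had another pattern over the libraries. On chromosome 11 from 78962974 to 78984946 on the minus strand, it had 12, 8 and 0 counts in Cx43FL and 3, 109 and 190 in Cx43KO, which is 0.790, 0.531 and 0 CPM against 0.186, 4.38 and 5.87 CPM. Cx43KO replicate 1 lay within the Cx43FL range and Cx43KO replicates 2 and 3 above it, and the count of 0 allows up to 3 counts in that library. The means were 0.440 ± 0.403 and 3.48 ± 2.95 CPM (SD, n = 3 each). The log2 fold change of 2.97 had an SE of 1.6 and was 3.52 without Cx43KO replicate 1 and 0.90 with the DESeq2 prior. It was 3.67 without Cx43FL replicate 1 and 2.36 without Cx43KO replicate 3. A nested coding transcript of 1074 bases, which makes up 67.7% of the representing transcript of 1586 bases, had 0, 0 and 0 counts in Cx43FL and 2, 84 and 74 in Cx43KO, so that the Cx43FL counts of Lgals9 all lay outside it. The nearest tested genes on either side were Lyrm9, 116 kb away, at -0.11 and the scaffold kinase Ksr1, 28.5 kb away, at 0.44.

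Interferon signalling genes, which act upstream of Cd274 and galectin-9 in other cells, were compared as a list of 18 genes, of which 16 were tested. Adjusted p-values of edgeR and DESeq2 called 0 of them. At an unadjusted edgeR p below 0.05 there was 1 (Stat2, higher), beside 5.66% of all tested genes in this direction. The log2 fold change was above 0 for 11, beside 54.4% of all tested genes, with a list median of 0.29 against 0.07. The extremes were Irf1, a transcription factor that acts on the Cd274 promoter, at 1.6 (SE 1.12), and Socs3, a feedback inhibitor, at -1.61. Irf1 had 3.62, 1.86 and 10.4 CPM in Cx43FL and 0.435, 21.7 and 26.1 CPM in Cx43KO. For Irf1, Cx43KO replicate 1 was thus below every Cx43FL library and replicates 2 and 3 were above every one.

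Stat2 and Irf9, which are part of the complex that binds the response element, had log2 fold changes of 1.29 (SE 0.57) and 1.11. Stat2 had 10.5, 8.09 and 11.3 CPM in Cx43FL and 10.8, 36.2 and 26.1 CPM in Cx43KO, and Irf9 had 12.2, 7.30 and 9.57 against 8.94, 19.9 and 34.2 CPM. Lgals9 was thus high in the same 2 Cx43KO libraries as Irf1, Stat2 and Irf9 and, like them, not above the Cx43FL range in Cx43KO replicate 1, whereas Cd274 was highest in Cx43KO replicate 1, where Irf1 was lowest. Other interferon-induced genes, named here after their values were seen, were not all alike in this library. The chemokine gene Cxcl10 had 6.52, 9.95 and 1.89 CPM in Cx43FL and 7.82, 56.9 and 52.1 in Cx43KO. The GTPase gene Iigp1 had 1.91, 0.464 and 6.58 against 3.66, 72.4 and 53.9 CPM. For both, Cx43KO replicate 1 lay within the Cx43FL range. The GTPase gene Igtp had 5.34, 3.05 and 2.87 against 21.6, 50.9 and 42.9 CPM, with Cx43KO replicate 1 above every Cx43FL library. Jak2, a kinase of the interferon-gamma receptor, was lower in every Cx43KO library, with a log2 fold change of -0.52 (SE 0.29), and Jak1 was higher in every one at 0.22. Ifng, the gene of interferon gamma, had 2 counts in Cx43FL replicate 3 and 0 in the other libraries. The part of interferon signalling in the Lgals9 and Cd274 values was not tested.

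**Figure D5:**
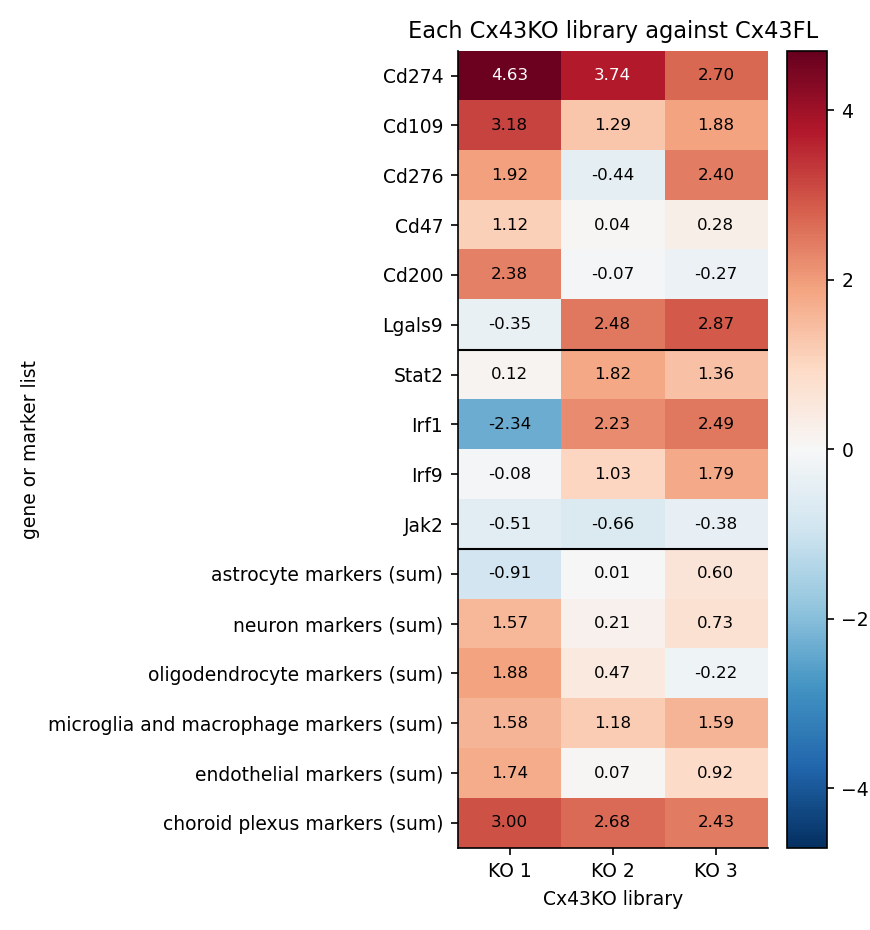
Difference of each Cx43KO library from the Cx43FL mean on the log2(CPM + 0.5) scale, for the 6 transcripts, for 4 interferon signalling genes and for summed cell type markers (red above, blue below). Cd274 is above the Cx43FL mean in each library, at 4.63, 3.74 and 2.70, while Lgals9 and Irf1 are below it in replicate 1 and above it in replicates 2 and 3.

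Receptors and binding partners of the 6 proteins came next, as a list of 10 genes of which 6 were tested. edgeR and DESeq2 called 0 of the 6, and 0 had an unadjusted p below 0.05. Pdcd1 (PD-1) and Cd200r1 (the CD200 receptor) had 0 counts in every library, and Havcr2 (TIM-3) had 5, 0 and 7 counts in Cx43FL and 10, 2 and 123 in Cx43KO and did not pass the filter on low counts. Sirpa, the receptor of CD47, was well covered, with 1877, 2413 and 2251 counts in Cx43FL and 2867, 4799 and 6987 in Cx43KO. Its log2 fold change was 0.45 (SE 0.27), and every Cx43KO library was above every Cx43FL library in CPM. Of the other partners, the extremes were Thbs1, a secreted ligand of CD47, at 1.5 (SE 1.40), and Cd80, which binds CD274 as well as CD28, at -0.16.

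The wider set of genes around these ligands held 108 genes in 9 lists, of which 65 were tested. edgeR called 0 of the 65 in either direction, DESeq2 called 0 with and without its prior, and at an unadjusted p below 0.05 edgeR had 5 higher (Pvr, Stat2, Tgfbr3, Smurf1 and Ltbp1) and 1 lower (Trappc4), beside 5.66% and 2.67% of all tested genes. Over the same genes, 43 of 65 had a log2 fold change above 0, beside 54.4% of all tested genes. The libraries did not overlap for 5 higher genes (Sirpa, Icosl, Jak1, Tgfbr3 and Smurf1) and 3 lower genes (Lair1, Nt5e and Jak2), beside 8.08% and 7.45% of all tested genes. Of 19 other inhibitory ligands 10 were tested and 7 of them were above 0, with a median of 0.74 that became -0.15 over the same genes without Cx43KO replicate 1. The highest was Pvr, the poliovirus receptor bound by TIGIT, at 4.11 (SE 1.76), whose counts of 2, 15 and 31 in Cx43FL and 868, 5 and 19 in Cx43KO show that the value comes from Cx43KO replicate 1 alone. The lowest was Ceacam1 at -2.16 (SE 1.61), and Pdcd1lg2, Vtcn1, Vsig4 and Btnl2 had 0 counts throughout.

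TGF-beta receptor genes, the pathway that CD109 binds, were a list of 15 genes with 13 tested. All 13 tested had a log2 fold change above 0, beside 54.4% of all tested genes. Their median was 0.66, and 0.29 without Cx43KO replicate 1, against 0.07 over all tested genes. edgeR and DESeq2 called 0 of them, and 3 had an unadjusted edgeR p below 0.05, beside 5.66% of all tested genes in this direction. The extremes were the co-receptor endoglin (Eng) at 1.84 (SE 1.39) and the ligand Tgfb3 at 0.06. Eng had 1.71, 0.531 and 2.21 CPM in Cx43FL and 14.8, 0.884 and 0.370 CPM in Cx43KO, so that its value comes from Cx43KO replicate 1 alone. Tgfbr3, the co-receptor betaglycan, had 11.99, 3.12 and 13.8 CPM in Cx43FL and 19.3, 30.2 and 26.1 CPM in Cx43KO (log2 fold change 1.39, SE 0.62). Smurf1, a ubiquitin ligase of the TGF-beta receptor, had 31.0, 30.8 and 29.8 against 54.4, 53.2 and 61.8 CPM, a log2 fold change of 0.89 (SE 0.34). These 2 genes alone of the 13 had every Cx43KO library above every Cx43FL library, beside 8.08% of all tested genes. The receptors Tgfbr1 and Tgfbr2 had log2 fold changes of 0.81 and 0.31.

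Of 7 galectin genes 5 were tested, from Lgals3 at 2.0 (SE 1.21) to Lgals12 at -1.46, and 2 were above 0. Lgals3 had 2, 38 and 29 counts in Cx43FL and 26, 267 and 190 in Cx43KO, high in the same libraries as Lgals9. Genes that handle the PD-L1 and CD47 proteins after translation were a list of 12 with 11 tested, from Cmtm4 at 0.85 to Trappc4 at -0.88 (SE 0.39), and 4 were above 0. In this list Cmtm6, which keeps PD-L1 at the cell surface, was at -0.11, and Qpctl, the enzyme that modifies CD47 at its SIRP alpha binding site, was at -0.60. Of 12 co-stimulatory ligands 3 were tested, Icam1 at 2.08, Icosl at 0.81 (SE 0.57) and Cd80 at -0.16, and Cd40, Tnfsf15 and Tnfsf18 had 0 counts. Of 12 soluble and enzymatic suppressors 6 were tested, from the prostaglandin synthase gene Ptges at 0.70 to Nt5e, the ectonucleotidase CD73, at -2.61 (SE 1.34). Of 16 inhibitory receptors of immune cells 3 were tested, Sirpa as above, Pilra at -0.48 and Lair1 at -1.11 (SE 0.51), and Pdcd1, Tigit, Cd244a, Cd200r1 and Klrc1 had 0 counts. In each of these lists edgeR and DESeq2 called 0 genes, and only Trappc4 had an unadjusted p below 0.05. Over all tested genes, 54.4% were above 0, and 2.67% were lower at an unadjusted edgeR p below 0.05.

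Markers of other cells that carry such ligands were measured beside Cd274 and Cd109. The 6 choroid plexus markers all had every Cx43KO library above every Cx43FL library, a pattern shown by 8.08% of the tested genes. However, edgeR and DESeq2 called 0 of these 6, and 0 had an unadjusted edgeR p below 0.05. Their median log2 fold change was 1.80, with summed levels of 9888, 456 and 15272 CPM in Cx43FL against 32849, 26197 and 22070 CPM in Cx43KO. The 12 microglia and macrophage markers summed to 52.3, 61.4 and 29.0 CPM against 137, 104 and 138 CPM, with a median of 1.22 over the 11 tested. Of these 11, 4 (among them Csf1r, Itgam and Mrc1) had every Cx43KO library above every Cx43FL library, beside the same 8.08%. Endothelial markers summed to between 8.47 and 12.1 CPM in Cx43FL and to 34.5, 10.5 and 19.3 CPM in Cx43KO. The part of choroid plexus, microglia or vessels in the Cd274 and Cd109 values was not tested. T cell markers Cd3e, Cd3g, Cd3d and Cd8a had 0 counts in every library, with a summed level of the list from 0.531 to 4.78 CPM, and 6 of 7 neutrophil markers had 0 counts.

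The genes whose level followed each transcript most closely were sought among the tested genes with a mean of at least 5 CPM, by Pearson's r of log2(CPM + 0.5) over the 6 libraries. The points share their libraries, so that r describes these 6 libraries only. For Cd274 they were Ofd1 (r = 0.991), Scamp5 (0.990) and Zswim8 (0.990). For Cd47 they were Kdelr2 (0.999), the neuronal chemokine gene Cx3cl1 (0.999) and Disp2 (0.998), and for Cd200 they were Thap2 (0.996), Bend4 (0.995) and Smad4 (0.992). For Lgals9 they were Slc38a3, Cdipt and Trim21, with r from 0.982 to 0.983, of which 1 remained among the 3 closest with a pseudocount of 2. For Cd276 they were Tmem267, Rere and Zfp580 (0.986 to 0.991), and for Cd109 Usp12, Syngr2 and Nrip3 (0.991 to 0.998). By rank, 1 of the 3 genes put the libraries in the same order as Lgals9, and 1 of the 3 in the same order as Cd276. Among the 6 transcripts themselves, r was highest for Cd274 with Cd109 and for Cd47 with Cd109, at 0.89 each, and lowest for Cd200 with Lgals9, at -0.31.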

How the data were processed

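Hippocampal astrocyte polysomal mRNAs were amplified from TRAP extracts with the NuGEN Ovation RNA-Seq kit, and the authors used Eoulsan for filtering, STAR for alignment on mm10 without reads of several matches, and HTSeq 0.5.3 for counting. The authors deposited raw counts per Ensembl transcript for each library. Here 73157 transcripts found a gene in GENCODE M21 (GRCm38). The 2309 without a gene took 1.6% to 1.78% of the counts.

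The most counted transcript over the 6 libraries stood for its gene. The genotype fit used edgeR 4.0.16 under R 4.3.3 (TMM, filterByExpr, quasi-likelihood F test, genotype only), with Benjamini-Hochberg adjustment. A gene was called at an adjusted p below 0.05 with a mean normalized count above 50 in the higher group. The standard error is the log2 fold change divided by the root of F. CPM use TMM library sizes, and per-library logs add 0.5. DESeq2 1.42.0, other scalings, filters, a replicate block, summed transcripts and leaving out each library were alternatives. The tests were tested on simulated data.

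The members and lists were chosen with earlier results of these data known. Named genes are the members, Gja1, the extremes of each list, called genes, receptors of members, their nearest tested neighbours and the 3 genes most like each. The other list genes, Cxcl10, Iigp1 and Igtp were named after their values were seen. Results of some list genes are not reported here. Lists of B cells, ependymal cells, mural cells, fibroblasts and oligodendrocyte precursors were also summed. The depth on transcripts was 33423491 to 77030398 counts, and 3 counts equal 0.0864 to 0.203 per M. Such a limit covers only counting error, as reads of an amplified library are not separate molecules. No pair of libraries differed as little as sampling noise (chi-square per degree of freedom 33.5 or more).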

Additional observations from a re-analysis of the deposited data

How the results depend on the processing

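Over all genes, edgeR called 1 gene (Prm1, named after its values were seen) higher and 0 lower in Cx43KO, against 113 and 17 with DESeq2 and its prior and 147 and 27 without the prior. Prm1 had 0 counts in every Cx43FL library and 571, 665 and 705 in Cx43KO. The origin of these Prm1 counts was not tested. With at least 10 counts in every library, and with the transcripts of a gene added up, the genes called higher were 0, and they ranged from 0 to 11 with a library left out, 11 being the value without Cx43KO replicate 1. Of the 6 ligand genes, 1 (Cd274) was called by DESeq2 with the prior and 1 without it, and 0 in every edgeR fit. The log2 fold changes with the prior were 2.63 for Cd274, 0.90 for Lgals9 and 1.53 for Cd109. With each library left out they ranged from -0.48 to 1.78 for Cd200 and from 2.91 to 4.18 for Cd109, and the causes were not tested. The other 77 alternative log2 fold changes of these genes moved by less than the spread between libraries. Lgals9 and Cd109 gave no value with at least 10 counts in every library. The count without Cx43KO replicate 1 of genes with separate groups was added after seeing the data.

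The replicate number as a block gave 2 genes called higher (Prm1 and Ighg2c) and 0 of the 6 ligand genes. Same-numbered libraries did not deviate together (correlations of 0.011, -0.0040 and -0.055 for numbers 1, 2 and 3), so the numbers were not taken as pairs. The Cx43FL levels of Lgals9 and Cd109 rest on a few counts per library, which limits the precision of their fold changes.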

Other observations

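Other cell type lists that do not enter the comparisons above were also summed. The 6 ependymal markers summed to 63.5, 44.9 and 53.5 CPM in Cx43FL and to 63.8, 120 and 101 CPM in Cx43KO. Their median log2 fold change was 1.36, with 5 of 6 above 0, beside 54.4% of all tested genes. The 6 oligodendrocyte precursor markers summed to 220, 240 and 195 CPM against 179, 186 and 342 CPM, and DESeq2 called 1 of them, Cspg4, higher. Among the microglia and macrophage markers DESeq2 called 1 gene, Itgam, which encodes the integrin chain CD11b, higher in Cx43KO. Without its prior only, it also called 1 neuron marker, Gad2, and 1 oligodendrocyte marker, Mbp, higher. Beside these calls, DESeq2 called 0.827% of all genes higher with its prior and 1.03% without it. Mural markers summed to 34.4, 39.1 and 42.4 CPM against 92.0, 39.0 and 85.7 CPM, and fibroblast and meningeal markers to 31.0, 56.0 and 44.6 CPM against 75.1, 38.0 and 83.5 CPM. The B cell and plasma cell markers summed to 28.6, 23.4 and 24.2 CPM against 78.0, 15.6 and 1.57 CPM.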
